A study of Caenorhabditis elegans with 7 samples.

Results

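The ankyrin, CRMP and spectrin skeleton of the axon was followed through 7 genes in embryonic A-class motor neurons of Caenorhabditis elegans. They encode ankyrin (unc-44), a homolog of the collapsin response mediator proteins, or CRMPs (unc-33), the lipid-binding chaperone UNC-119 (unc-119), β-spectrin (unc-70), α-spectrin (spc-1), heavy β-spectrin (sma-1) and a homolog of the CLIP microtubule plus-end proteins (clip-1). The genes were taken by name, and every probe set that the platform annotation of the array pairs with 1 of these symbols was included. This gave 23 of 22548 probe sets, for 7 of 17118 named genes. Of the 23, 9 probe sets belonged to unc-44, 3 each to unc-33, unc-70 and spc-1, 2 each to sma-1 and clip-1, and 1 to unc-119.

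Spectrin is a tetramer of α and β chains that lies under the plasma membrane, cross-links actin and gives the axon its resistance to bending. Ankyrin ties this lattice to membrane proteins, and in C. elegans neurons it also binds, through UNC-119, the CRMP homolog UNC-33, which holds microtubules and helps to keep axonal and dendritic proteins apart. The worm has a single α-spectrin and a pair of β chains, one general (UNC-70) and one that works at the apical side of epithelia (SMA-1). Mutants of unc-44, unc-33, unc-119 and unc-70 are uncoordinated, with axons that stray, branch or break, and sma-1 mutants are short because the epidermis of the embryo elongates poorly.

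Sorted neurons and unselected cells were compared on the Affymetrix C. elegans array. The A-class group was 3 arrays of GFP-positive cells, sorted at about 90% enrichment from cultures of embryos carrying the unc-4::GFP transgene, and the reference was 4 arrays of all living cells from wild-type (N2) embryos. Cells of both groups were dissociated from embryos, plated for 24 hours on poly-L-lysine and passed through a cell sorter, and each array took 100 ng of total RNA through 2 amplification rounds. The unc-4 promoter marks the DA and SAB motor neurons and a pharyngeal neuron, so the A-class arrays measure a mixture of these cells and of the cells that the sort let through, and the reference holds neurons too. In such bulk RNA, fewer cells of a type and less RNA per cell cannot be told apart. The labels call the arrays biological replicates and do not say that they came from separate cultures, and p-values measure the spread between these arrays.

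Deposited values are RMA intensities on a linear scale, which compare 1 probe set between arrays and not 1 probe set with another. Array medians were between 66.9 and 70.1. Pairs of arrays had an R² of 0.938 to 0.969 within the reference, 0.893 to 0.947 within A-class and 0.772 to 0.876 between the groups. The sorted gene unc-4 was at 1277 ± 116 (SD, n = 3) against 97.1 ± 9.47 (n = 4). Of 6 A-class and cholinergic markers 4 were higher, and of 8 pan-neuronal markers 3 were (2.2% of all genes were). In the first list cha-1 and unc-5 did not pass (log2 fold change 1.12 and 0.49). In the second list rab-3, snt-1, snb-1, rgef-1 and egl-3 did not (1.41, 1.44, 0.42, 0.06 and -0.17), and rgef-1 was among the dimmest 30% of the array. A probe set is called higher or lower here at an adjusted p under 0.01 (limma, Benjamini-Hochberg over all 22548 probe sets) and a difference of at least 1.7-fold. Hybridization records placed 2 arrays of each group in fluidics module 1 and 1 of each in module 2, with reference replicate 3 alone in module 3. Each chip lot held 1 group, so lot and cell type cannot be told apart. No hybridization day held both groups. Day 1 held reference replicates 1, 2 and 3, and each other array had a day of its own, so a random block for the day rests on those 3 reference arrays alone.

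Of the 7 genes, spc-1 and clip-1 were higher in A-class cells and sma-1 was lower, while unc-70, unc-33 and unc-119 did not pass in any probe set. Ankyrin was divided, since 1 of the 9 unc-44 probe sets was higher and the other 8 did not pass. Counted over probe sets, 4 of 23 were higher (17.4%, against 2.2% of all probe sets on the array) and 1 was lower (4.35%, against 3.46%). Counted by the probe set that represents each gene, 2 of 7 genes were higher (2.2% of all genes) and 1 was lower (3.3% of all genes). Every A-class array was above every reference array for 6 probe sets (26.1%, against 16.9% of all) and below for 2 (8.7%, against 14% of all). The median log2 fold change was 0.11 over the 23 probe sets and 0.04 over all probe sets. Numbers this small describe these genes and are not a test of the group.

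**Figure D1:**
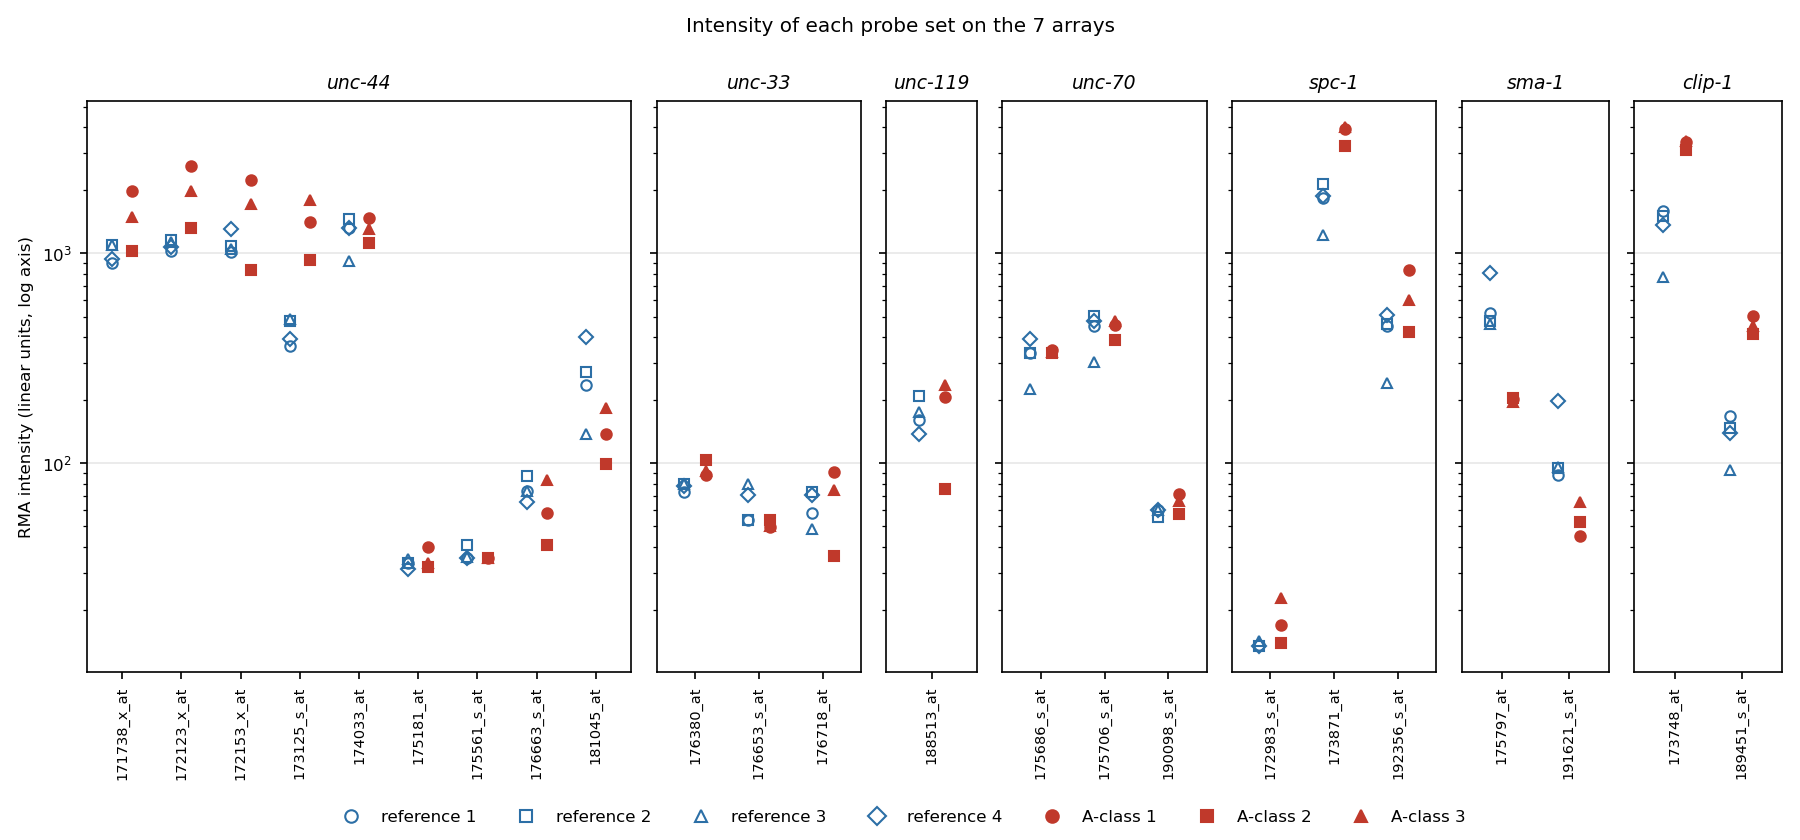
RMA intensity (linear units on a log axis) of each of the 23 probe sets on the 4 reference arrays (open symbols) and the 3 A-class arrays (filled symbols), with 1 symbol for each array. The A-class arrays lie above all reference arrays for both clip-1 probe sets, spc-1 173871_at, unc-44 173125_s_at, unc-44 172123_x_at and unc-33 176380_at. They lie below all reference arrays for both sma-1 probe sets.

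α-Spectrin pairs with either β chain, and the gene-specific probe set of spc-1, 173871_at, was higher in A-class cells. It read 3914, 3242 and 3991 on the A-class arrays and 1835, 2134, 1227 and 1879 on the reference arrays. The groups were well apart, and reference replicate 3 was the lowest of its group. Expression was 3716 ± 412 (SD, n = 3) against 1769 ± 385 (n = 4), 2.14-fold higher (log2 fold change 1.09, SE 0.20, adjusted p = 0.00831 from limma). A block for the fluidics module brought this to 0.93 (adjusted p = 0.0189), which is no longer a call, and the difference was 0.95 within module 1 and 0.88 within module 2. The call was also lost when any 1 array other than reference replicate 3 was left out, with adjusted p up to 0.0350.

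Neither of the other spc-1 probe sets passed. Probe set 192356_s_at read 838, 422 and 598 in A-class and 450, 462, 240.1 and 507 in the reference, with A-class replicate 2 inside the reference range (0.58, SE 0.31, adjusted p = 0.219). Probe set 172983_s_at read between 13.9 and 22.8 in A-class and between 13.4 and 14.2 in the reference (0.35, SE 0.17, adjusted p = 0.172). Its brightness percentile was 0.89, deep within the dimmest 30% of the array. Both differences had the sign of the called one, though readings as dim as those of 172983_s_at say little about spc-1.

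Among the β chains, the general one, unc-70, did not pass on any of its 3 probe sets (adjusted p between 0.432 and 0.903). Its probe set 175706_s_at read 456, 387 and 475 in A-class and 450, 504, 304 and 477 in the reference, with a difference of 0.04 on the log2 scale (95% interval -0.39 to 0.47). Probe set 175686_s_at read 346, 334 and 339.6 in A-class and 334, 334, 226 and 390.2 in the reference (0.11, interval -0.31 to 0.53). The groups overlapped on both, and all A-class values lay within the span of the reference. The third, 190098_s_at, which the study's annotation assigns to transcript K11C4.3a, read 71.4, 57.1 and 66.3 against 59.9, 55.4, 59.9 and 59.9 (0.14, interval -0.13 to 0.41). Each of these intervals keeps the difference below 1.7-fold in either direction.

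Heavy β-spectrin, the apical chain of epithelia, fell. Probe set 175797_at of sma-1 read 201, 204 and 195 in A-class and 523, 476, 461 and 810.0 in the reference. The A-class arrays were within a narrow band under the lowest reference array, and reference replicate 4 was the highest. Expression was 200 ± 4.61 (SD, n = 3) against 567 ± 164 (n = 4), 2.76-fold lower (log2 fold change -1.46, SE 0.20, adjusted p = 0.00277). A module block left -1.55 (adjusted p = 0.0162), and the difference was -1.71 within module 1 and -1.24 within module 2. Without A-class replicate 1 or A-class replicate 3 the adjusted p was 0.0128 and 0.0144, outside the limit.

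The other sma-1 probe set, 191621_s_at, read 45.2, 52.4 and 65.7 in A-class and 88.4, 94.8, 96.4 and 198 in the reference. It was below every reference array on every A-class array and missed the limit (-1.06, SE 0.29, adjusted p = 0.0375). Reference replicate 4 again stood above the rest.

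Epidermal markers were read beside sma-1, and 1 of 12 was called lower (3.3% of all genes were) and none higher. Every A-class array was below every reference array for 7 of the 12 (14% of all probe sets were) and above for 1 (16.9% of all). The groups overlapped for 4. Summed over the 12, the intensities were between 2595 and 3906 on A-class arrays and between 4703 and 7527 on reference arrays, and without the collagen gene sqt-3, which held much of the sum, between 1757 and 2027 and between 2129 and 2721. The called gene was dlg-1, which encodes a scaffold of epithelial junctions (-1.78 on the log2 scale, adjusted p = 0.00107). The others include ajm-1, a second junction gene (-0.55, adjusted p = 0.0623), and the transcription factor genes lin-26 (-0.97, adjusted p = 0.0550) and elt-1 (1.05, adjusted p = 0.0143), the last with the opposite sign. Without overlap but uncalled, sqt-3 (-1.49, adjusted p = 0.0171), dpy-7 (-1.43, 0.0301), nhr-25 (-1.19, 0.0148), elt-3 (-0.73, 0.0450) and che-14 (-0.53, 0.0294) were below the reference. With overlap, bli-1 was at -0.14, dpy-13 at 0.53 and rol-6 at 0.46. Sums over 9 intestinal genes were between 910.2 and 1080 in A-class and between 1063 and 2005 in the reference, and over 7 pharyngeal genes between 789 and 1295 and between 1036 and 1358, with no member of either list called. RMA intensities stay above 0 on every array, so a reading does not by itself show that a marker is expressed. The share of epidermal or other epithelial cells in the reference and its part in the sma-1 difference was not tested.

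Ankyrin gave the widest spread between probe sets, but it also has the most of them (9), and a span grows with their number. The called probe set, 173125_s_at, read 1411, 932 and 1806 in A-class and 360.2, 475, 489.5 and 390.4 in the reference. All A-class arrays were above all reference arrays, with A-class replicate 2 the nearest. Expression was 1383 ± 437 (SD, n = 3) against 429 ± 63.1 (n = 4), 3.14-fold higher (log2 fold change 1.65, SE 0.23, adjusted p = 0.00296). The study's annotation assigns this probe set to transcript B0350.2b. The module block left 1.72 (adjusted p = 0.0195), and the difference was 1.79 in module 1 and 1.57 in module 2. Leaving out reference replicate 2, reference replicate 4, A-class replicate 1 or A-class replicate 3 gave adjusted p of 0.0113, 0.0106, 0.0142 and 0.0107.

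A group of 3 unc-44 probe sets is assigned to transcript B0350.2a, and their suffix (_x_at) marks probes that can bind other transcripts. On 172123_x_at the A-class arrays read 2596, 1324 and 1973 and the reference arrays 1023, 1154, 1133 and 1071. The groups did not overlap, but the difference missed the limit (0.79, SE 0.21, adjusted p = 0.0357). It passed when A-class replicate 2 was left out (1.05, adjusted p = 0.00592). On 171738_x_at the A-class arrays read 1979, 1032 and 1487 against 905, 1099, 1099 and 945 (0.52, SE 0.21, adjusted p = 0.122). On 172153_x_at they read 2247, 830.3 and 1713 against 1013, 1089, 1054 and 1313 (0.41, SE 0.30, adjusted p = 0.371). In all 3, A-class replicates 1 and 3 were above the reference and A-class replicate 2 was much lower than both.

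The probe set that represents unc-44 by its suffix, 174033_at, read 1473, 1119 and 1308 in A-class and 1314, 1451, 924 and 1314 in the reference. The groups overlapped, with reference replicate 3 below every A-class array, and the log2 fold change was 0.07 (95% interval -0.34 to 0.48, adjusted p = 0.819). Probe set 181045_at, assigned to transcript B0350.2f, read 138, 98.9 and 183 in A-class and 237, 271, 138 and 402 in the reference. It leaned the opposite way without passing (-0.85, SE 0.35, adjusted p = 0.129), and reference replicate 3 lay among the A-class arrays. Of the remaining unc-44 probe sets, 176663_s_at was at -0.35 (adjusted p = 0.301), 175181_at at 0.08 (0.681) and 175561_s_at at -0.06 (0.742). The last of these read 35.3 on each A-class array and both it and 175181_at were among the dimmest 30% of the array.

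Probe sets of 1 gene share their arrays, so their differences can be set against each other within the array. For unc-44, with 9 probe sets against 2 or 3 for the others, the log2 fold changes spanned 2.50 between 173125_s_at and 181045_at. An exact permutation test, one-sided on this span over the 35 ways to choose 3 of 7 arrays, gave p = 0.0286, the smallest that it can give, and 0.114 after Benjamini-Hochberg adjustment over the 6 genes with several probe sets. The span was 0.74 for spc-1 and 0.37 for clip-1 (exact p = 0.0571 and adjusted p = 0.114 for each), 0.40 for sma-1 (exact p = 0.0857, adjusted 0.129), 0.59 for unc-33 (exact p = 0.314, adjusted 0.377) and 0.10 for unc-70 (exact p = 0.886, adjusted 0.886). The lower end of the spc-1 span was the very dim 172983_s_at. With 35 assignments and 6 genes, a gene at the smallest p on its own could not pass 0.05 after adjustment, so these values describe the spans and do not settle them. Without any 1 array the unc-44 span was between 2.22 and 2.84.

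**Figure D2:**
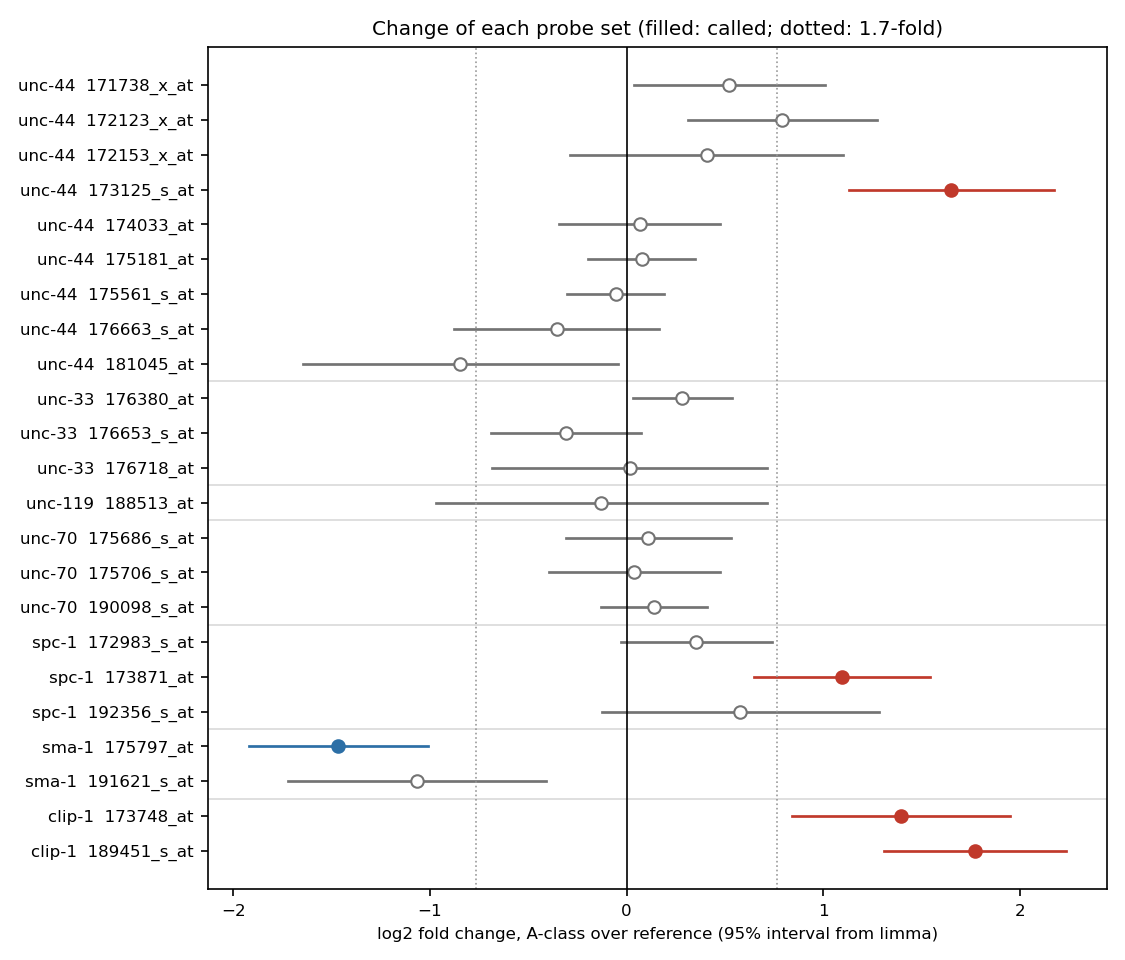
Log2 fold change of A-class over reference for each probe set, with the 95% interval from limma (3 and 4 arrays). Filled points are called, dotted lines mark 1.7-fold, and the 9 unc-44 probe sets run from -0.85 to 1.65 while the 3 of unc-70 lie between 0.04 and 0.14.

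UNC-33 joins the ankyrin complex to microtubules, and none of its 3 probe sets was called. On 176380_at the A-class arrays read 88.4, 104 and 92.2 and the reference arrays 73.3, 79.6, 80.1 and 78.2. Every A-class array was above every reference array, by a small margin (0.28, SE 0.11, adjusted p = 0.111). On 176653_s_at the A-class arrays read 49.8, 53.6 and 50.5 and the reference arrays 53.6, 53.6, 79.6 and 70.9 (-0.31, SE 0.17, adjusted p = 0.223). On 176718_at they read 90.7, 36.2 and 74.7 against 58.0, 73.4, 48.7 and 70.8 (0.02, SE 0.31, adjusted p = 0.977). The 3 probe sets thus had different signs, and with A-class replicate 2 at 36.2 the last of them had a 95% interval of -0.68 to 0.72. Its sign turned with the array left out, from -0.25 without A-class replicate 1 to 0.41 without A-class replicate 2.

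UNC-119, which binds UNC-33 and UNC-44 and carries lipid-modified proteins, has a single probe set. Probe set 188513_at read 206, 75.8 and 236 in A-class and 160.2, 210.1, 175 and 138 in the reference. A-class replicate 3 was the highest of the 7 arrays, A-class replicate 1 was just under the highest reference array and A-class replicate 2 was the lowest of all. The log2 fold change was -0.13 (95% interval -0.97 to 0.71, adjusted p = 0.830). It changed sign to 0.38 when A-class replicate 2 was left out.

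The same array stood low for other members. A-class replicate 2 had the lowest A-class value, ties included, for 19 of the 23 probe sets (82.6%), against 36.4% of all probe sets on the array. Reference replicate 3 was the lowest of the reference for 10 of 23 (43.5%, against 27.1% of all). Median intensities of both arrays, 68.7 and 70.1, were not below those of the others, but their values were the least spread of their groups. The interquartile range of log2 intensity was 1.78 on A-class replicate 2, against 2.01 and 1.88 on the other A-class arrays, and 1.96 on reference replicate 3, against 2.12 to 2.20 on the other reference arrays. The part of this spread in the low readings was not tested. Without A-class replicate 2, 3 member probe sets were higher and 1 was lower, and unc-44 173125_s_at was at 1.91. Without reference replicate 3 the counts stayed at 4 and 1.

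CLIP proteins bind the growing ends of microtubules, and clip-1 was higher on both of its probe sets. Probe set 189451_s_at read 505, 413 and 451 in A-class and 167, 147, 92.5 and 139 in the reference. Probe set 173748_at read 3389, 3104 and 3444 in A-class and 1585, 1499.8, 769.8 and 1367 in the reference. The groups were far apart on both, and reference replicate 3 was the lowest array each time. The first was 3.41-fold higher (456 ± 45.9, n = 3, against 136 ± 31.7, n = 4, log2 fold change 1.77, SE 0.20, adjusted p = 0.00160), and the second 2.63-fold higher (3312 ± 183 against 1305 ± 368, log2 fold change 1.40, SE 0.24, adjusted p = 0.00727).

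With the module block, 189451_s_at of clip-1 remained called (1.59, adjusted p = 0.00746) and 173748_at did not (1.16, adjusted p = 0.0109). Within the modules the differences were 1.503 and 1.78 for the former and 1.15 and 1.18 for the latter. The former also stayed called without any 1 of the 7 arrays (adjusted p up to 0.00882), the only member probe set to do so, while the latter lost its call without reference replicate 2 or 4 or any A-class array (adjusted p up to 0.0311). With the hybridization day as a random block sma-1 175797_at stayed called (-1.56, adjusted p = 0.00613), and the 4 higher probe sets lost their calls. Their log2 fold changes were then 1.76 for 189451_s_at (adjusted p = 0.0104), 1.67 for unc-44 173125_s_at (0.0106), 1.07 for spc-1 173871_at (0.0438) and 1.37 for 173748_at (0.0444).

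**Figure D3:**
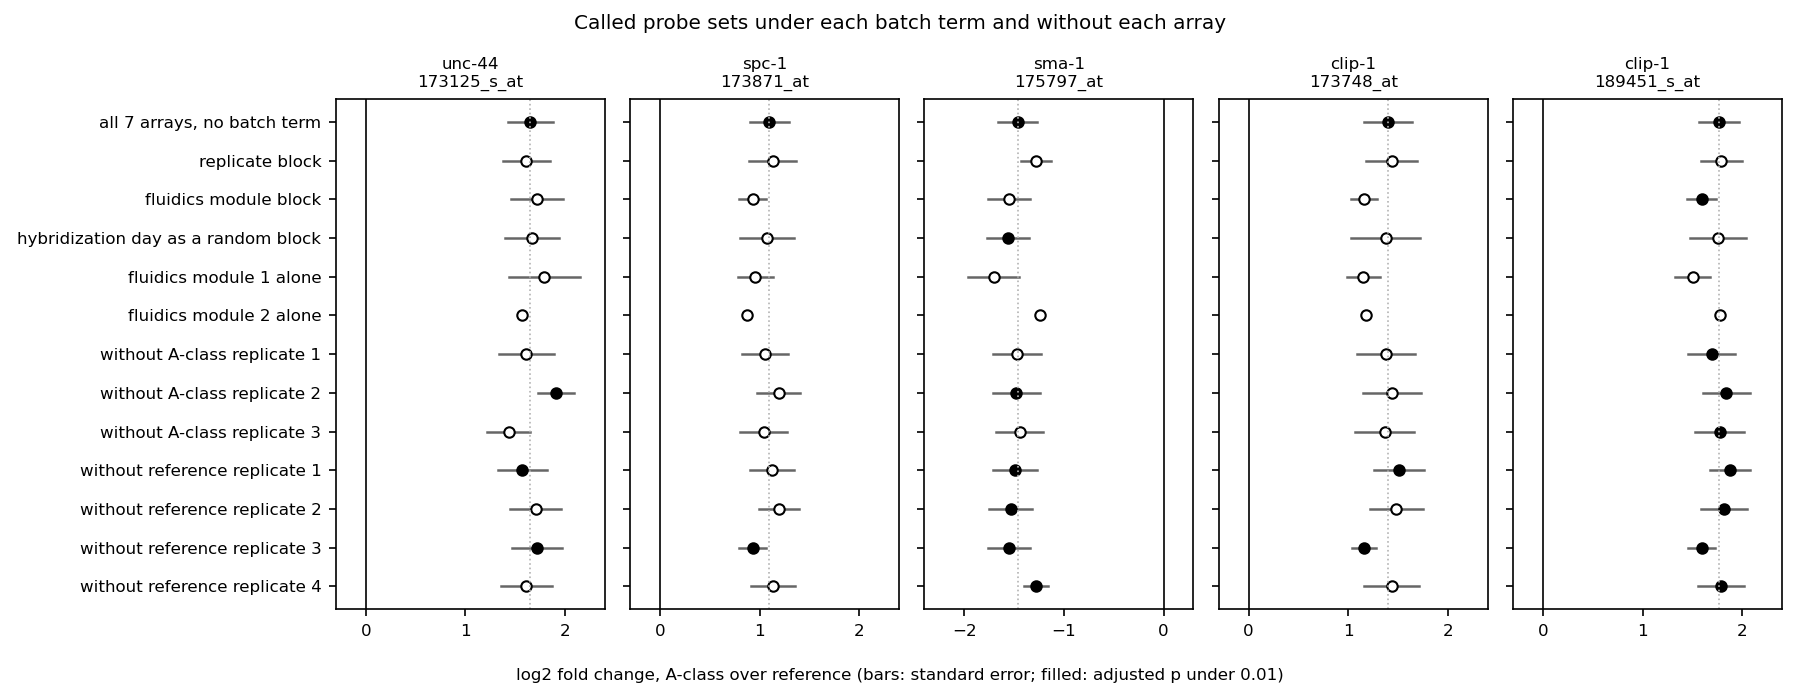
Log2 fold change (points) and standard error (bars) of the 5 called probe sets with all 7 arrays, with each batch term, within each fluidics module (module 2 holds 1 array of each group and has no error) and without each array. Filled points have an adjusted p under 0.01, and all points keep the direction of the upper one, from 0.88 to 1.91 for the 4 higher probe sets and from -1.71 to -1.24 for sma-1.

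Genes that work with these proteins were looked up by name: membrane skeleton proteins, ankyrin-binding adhesion molecules, genes of UNC-33, UNC-51 and UNC-76 axon growth, microtubule-end proteins, UNC-119 partners and other ankyrin-repeat proteins. Of 55 names, 50 were matched to a probe set (dys-1, rac-2, ebp-1, ebp-3 and arl-2 were not). Among the 50, 5 genes were higher (10%, against 2.2% of all genes), 3 were lower (6%, against 3.3%) and 42 did not pass. Their median log2 fold change was -0.05, and that of all genes was 0.05.

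In the membrane skeleton, 1 of 14 genes was higher (2.2% of all genes were) and 1 was lower (3.3% of all). Both encode FERM-domain proteins of the kind that link spectrin and actin to the membrane. Expression of frm-3 was 599, 324 and 557 in A-class and 179, 170.3, 101 and 156 in the reference (log2 fold change 1.69, SE 0.27, adjusted p = 0.00531). Neither of its other 2 probe sets was called (-0.27 and 0.70). Expression of frm-2 was 159, 72.2 and 151 in A-class and 414, 609, 516 and 568 in the reference, a drop of 4.34-fold (-2.12, SE 0.28, adjusted p = 0.00254). The groups were apart for both genes, in opposite directions.

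Of the adducins, which cap actin at spectrin junctions, add-1 just missed the limit on its representing probe set (0.98, adjusted p = 0.0104), while its other 2 probe sets were higher (1.98 and 0.81, adjusted p = 0.00335 and 0.00740). The other adducin gene, add-2, was at 0.08 (adjusted p = 0.793), and its groups overlapped. Tropomodulin (unc-94) was at -0.56 (adjusted p = 0.0949), and the spectraplakin vab-10 was at 0.19 (adjusted p = 0.694), with none of its 6 probe sets called. Both genes for L1-type adhesion molecules, the membrane partners of ankyrin, missed the limit. On its representing probe set, sax-7 read 317, 255 and 294 in A-class and 157, 166, 63.0 and 143 in the reference. The groups did not overlap there (1.21, SE 0.32, adjusted p = 0.0352). That probe set passed when reference replicate 3 was left out (0.89, adjusted p = 0.00943). On the other sax-7 probe sets the groups overlapped and none was called (0.28, 0.50 and -0.22). The second L1-type gene, lad-2, was at 0.33 (adjusted p = 0.167).

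Among 13 genes of the UNC-33, UNC-51 and UNC-76 axon growth group, unc-76 and unc-69 were higher (2.2% of all genes were). They encode the homologs of FEZ and SCOCO proteins, which bind each other and serve axonal transport. Expression of unc-76 was 1584, 1367 and 1415 in A-class and 851, 668, 487 and 796 in the reference (1.08, SE 0.20, adjusted p = 0.00862), and its second probe set was higher too (1.52, adjusted p = 0.00142). Expression of unc-69 was 386, 426 and 478 in A-class and 180.3, 221, 205 and 153 in the reference (1.19, SE 0.15, adjusted p = 0.00242). Neither gene had groups that overlapped.

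The same list holds the nearest relatives of unc-33 and the kinase pathway of axon outgrowth, and 1 of these genes was lower (3.3% of all genes were). Expression of dhp-2, a dihydropyrimidinase-like relative of unc-33, was 25.5, 30.5 and 21.97 in A-class and 47.4, 60.1, 65.0 and 51.5 in the reference (-1.11, SE 0.16, adjusted p = 0.00365). The other relative, dhp-1, read between 39.3 and 41.5 over all arrays (-0.03, adjusted p = 0.839). The dhp-2 and dhp-1 probe sets were both among the dimmest 30% of the array. The kinase gene unc-51 (-0.63, adjusted p = 0.0925) and unc-14, whose product binds UNC-51 (0.74, adjusted p = 0.0725), did not pass. The second unc-14 probe set was at -0.14.

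Of 13 genes for proteins of microtubule ends, 1 was higher (2.2% of all genes were) and 1 was lower (3.3% of all). The microtubule polymerase gene zyg-9 read 558, 461 and 571 in A-class and 243, 228, 141 and 239 in the reference (1.34, SE 0.21, adjusted p = 0.00463), on 1 of its 2 probe sets (the other was at 0.05). The CLASP gene cls-2, for a protein that steadies microtubules, read 435, 486 and 518 in A-class and 1014, 1082, 878 and 1311 in the reference (-1.15, SE 0.15, adjusted p = 0.00268), and its second probe set was lower too (-1.26, adjusted p = 0.00258). The other CLASP genes were not called. Of these, cls-3 went the opposite way to cls-2 and just missed the limit (1.14, adjusted p = 0.01003), with groups that did not overlap, and cls-1 was at -0.40 (adjusted p = 0.158). The gene klp-7 just missed it too, on the lower side (-1.15, adjusted p = 0.0103). Dynactin (dnc-1) was at 0.94 (adjusted p = 0.0134), and its other probe sets were at 0.60 and 0.14. The groups did not overlap for zyg-9 or cls-2.

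Of 3 partners of UNC-119 in the handling of lipid-modified cargo, 1 was higher (2.2% of all genes were). This was pdl-1, the gene for the homolog of the prenyl-binding protein PDE delta. It read 328, 398 and 316 in A-class and 146, 102, 102 and 81.3 in the reference (1.71, SE 0.20, adjusted p = 0.00162). With A-class at 347 ± 43.9 (SD, n = 3) and the reference at 108 ± 27.1 (n = 4), the groups were far apart. None of 4 other ankyrin-repeat genes was called (2.2% of all genes were higher and 3.3% lower). With the module as a block, none of these 8 genes passed (adjusted p between 0.0125 and 0.0252), and each kept its direction within both modules.

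Calls of the same genes were lost without single arrays as well. Without reference replicate 2, the calls of frm-3, unc-76, zyg-9, dhp-2, frm-2 and cls-2 were lost, and without A-class replicate 1 those of frm-3, unc-76, zyg-9, dhp-2 and cls-2. Without A-class replicate 3 those 5 and unc-69 were lost, without reference replicate 4 those of frm-3, unc-76, zyg-9 and dhp-2, without reference replicate 3 those of frm-3 and dhp-2, and without A-class replicate 2 those of unc-76 and zyg-9. The highest adjusted p in any of these was 0.0326, for unc-76, and pdl-1 stayed called in each (up to 0.00852).

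**Figure D4:**
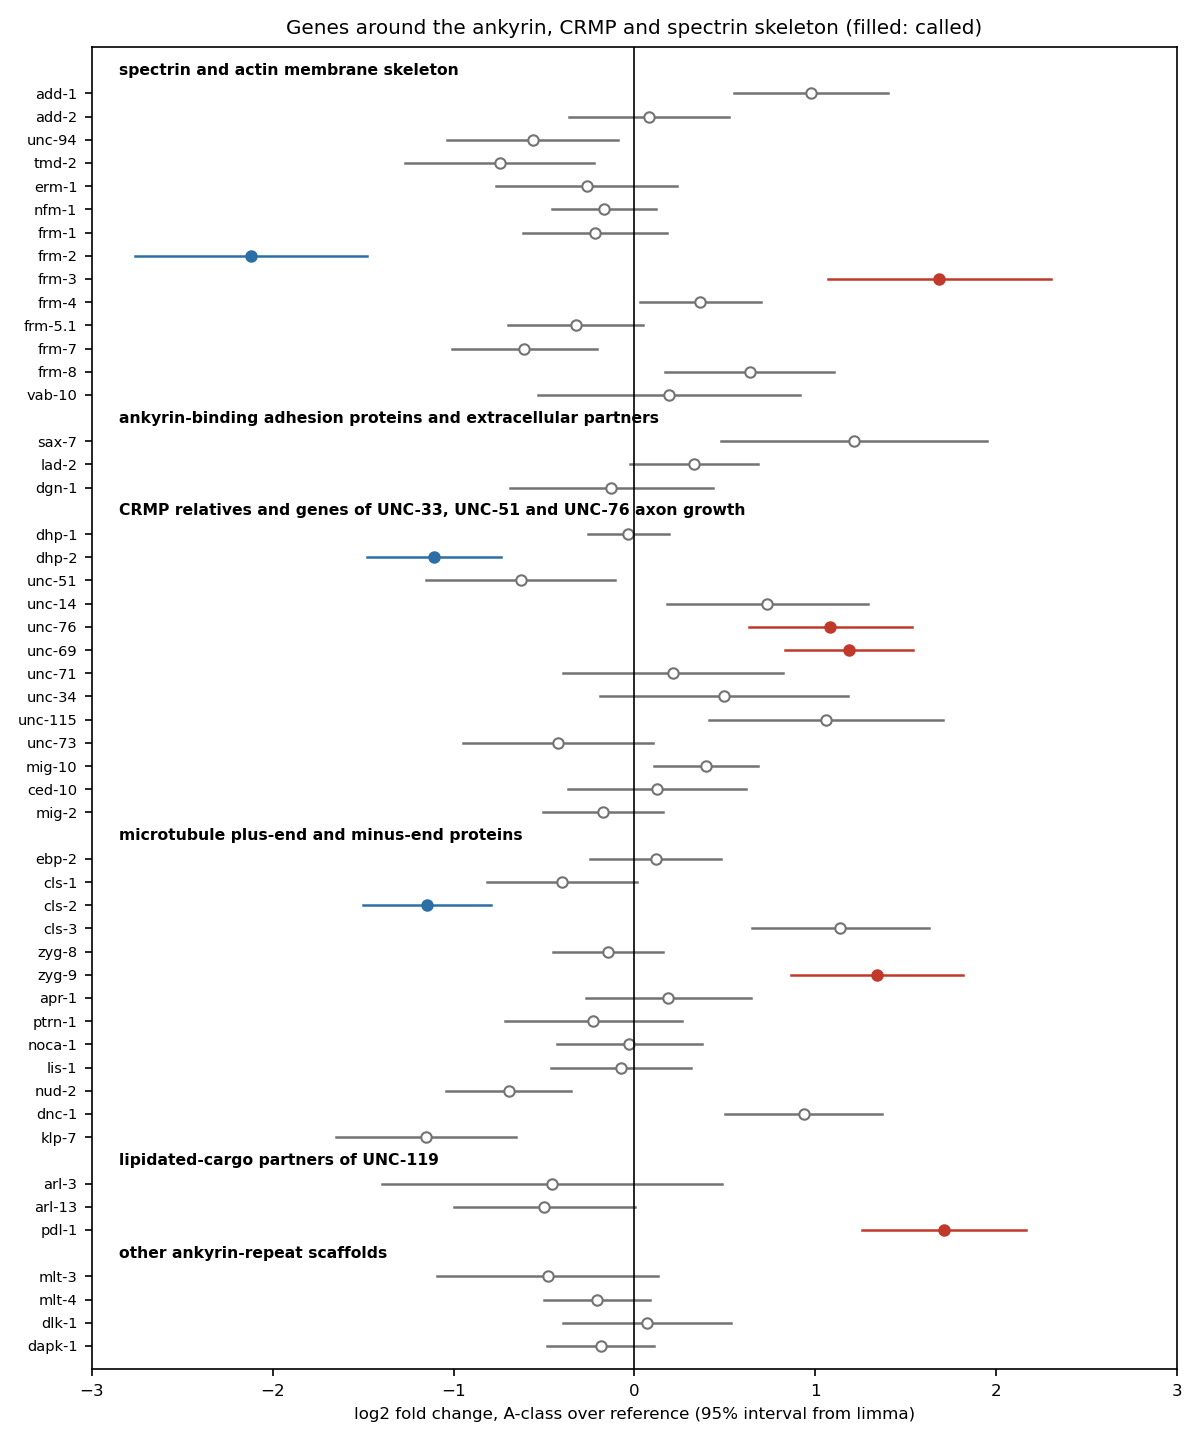
Log2 fold change of A-class over reference with the 95% interval from limma for the 50 measured genes that work with the ankyrin, CRMP and spectrin skeleton, grouped by role. Filled points are called, with frm-3, unc-76, unc-69, zyg-9 and pdl-1 to the right (1.08 to 1.71) and frm-2, dhp-2 and cls-2 to the left (-2.12 to -1.11).

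Patterns over the 7 arrays were also compared with those of every other named gene, by the root mean square difference of centred log2 intensities. The nearest to unc-44 (174033_at) were spk-1, for a kinase of splicing factors (0.04), F19B6.1 (0.06) and the nuclear hormone receptor gene nhr-1 (0.07), and 26 probe sets lay within 0.1. For unc-33 (176380_at) they were cyld-1, clec-208 and ins-24, each at 0.04, with 673 probe sets within 0.1. For sma-1 (175797_at) they were imb-3, for an importin (0.12), lact-2 (0.15) and Y43E12A.2 (0.15), and no probe set lay within 0.1. This distance is not scaled, so the counts depend on the size of each probe set's own log2 fold change (0.07, 0.28 and -1.46). They do not compare how unusual the 3 patterns are.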

How the data were processed

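RNA of 3 A-class and 4 reference samples was measured on 1 Affymetrix array each, and the sample titles gave each array its group and number. Each value that the authors deposited is an intensity from RMA normalization, on a linear scale (named in the submitters' processing notes and the study's methods; the sources used here give no version of it). The number of arrays limits the precision.

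The log2 of each deposited intensity was taken without a pseudocount and with no filter, and limma 3.58.1 (R 4.3.3) was fitted to all 7 arrays with the group as its only term. P-values were adjusted by Benjamini-Hochberg over the 22548 probe sets. A call needed an adjusted p under 0.01 and 1.7-fold. The study's methods give no test for the embryonic A-class list. The fit and the span test were tested on simulated data. Figures were drawn with matplotlib 3.10.9 in Python 3.11.15.

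Gene names came from the platform annotation, in which 20766 probe sets have 1 symbol, 887 several and 895 none. A gene is represented by its probe set ending in _at, then _s_at, then another suffix, and among those by the brightest. Transcript assignments came from the study's annotation. Probe set 172122_at, which that annotation gives to unc-33, has no symbol in the platform table and was not used. All probe sets of the 7 genes are described, with every partner gene called and sax-7, lad-2, vab-10, unc-76, unc-51, unc-14, dhp-1, dhp-2, add-1, unc-94, ebp-1 (not matched) and dnc-1, and the 3 nearest profiles to unc-44, unc-33 and sma-1. The values of add-2, cls-1, cls-3 and klp-7 were added after seeing the data. Members, partner genes and marker lists were chosen with earlier results of these data known. Marker sums over body wall muscle (10 genes) were between 1336 and 2065 in A-class and between 2262 and 3212 in the reference, over touch neurons (5) 492 to 540 and 1060 to 2422, over GABA neurons (3) 198 to 272 and 258 to 409, and over germ line and blastomeres (4) 409.8 to 822 and 322 to 382; of these only mec-7 was called (lower). Protein and promoter sequences were not used here, and a planned motif search was not run. No genome coordinates were used. The alternatives were other variances, limits, scalings, filters and pseudocounts, batch terms and leaving out each array.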

Additional observations from a re-analysis of the deposited data

Results flagged for a closer look

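Dixon's criterion was applied to the log2 intensities of the reference arrays in 41 probe sets. These were those of the 7 genes, the representing probe set of each named partner gene other than add-2, cls-1, cls-3 and klp-7, and that of unc-4. A single reference array stood apart from the other 3 in 7 cases, where chance gives about 1 in 20. Reference replicate 3 was the array in 4 of them. It was at 240.1 for spc-1 192356_s_at (the others between 450 and 507), at 63.0 for sax-7 174589_at (143 to 166), at 141 for zyg-9 175654_at (228 to 243) and at 41.5 for dhp-1 192914_at (the others all at 40.8). Reference replicate 2 was at 40.9 for unc-44 175561_s_at (35.3 to 35.6) and at 55.4 for unc-70 190098_s_at (the others all at 59.9). Reference replicate 4 was at 198 for sma-1 191621_s_at (88.4 to 96.4). For the dhp-1, unc-44 and unc-70 probe sets the other arrays were tied or nearly so, so that a small difference met the criterion.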

How the results depend on the processing

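No direction of a called probe set or gene reversed under any alternative, and 21 of 339 values of uncalled member probe sets changed sign. All 5 called members stayed called with robust variances, a 1.5-fold limit, an adjusted p under 0.05, the dimmest 30% left out, quantile normalization once more and median centring. The 4 higher member probe sets became 2 with log2 of the value plus 50, 0 with the replicate block, 1 with the fluidics module block, 0 on module 1 alone, 0 with the hybridization day as a random block, and 1 to 4 without single arrays. At an adjusted p under 0.05, unc-44 172123_x_at was called higher as well (limma, adjusted p = 0.0357, 1.73-fold). The 1 lower member became 2 at an adjusted p under 0.05, 0 with the replicate block, the module block and module 1 alone, and 0 to 1 without single arrays. Partner genes called higher (5) were 0 with the replicate block, the module block and module 1 alone, and 1 to 6 without single arrays. Chosen after seeing the data, the other settings were also applied to them and gave 10 at an adjusted p under 0.05, 8 with quantile normalization once more, 3 with the value plus 50, 2 with the day as a random block, and 5 to 7 otherwise. Those called lower (3) were 0 with the first 3 settings, 1 when genes were read from _at probe sets alone, 0 to 3 without single arrays, and 2 to 4 with the settings added later.

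Replicate numbers did not pair the arrays (correlations of deviations 0.03, -0.12 and -0.05, with no array nearest to its own number). The replicate block leaves out the information of reference replicate 4 and the module block that of reference replicate 3, and they left 2 and 3 residual degrees of freedom in place of 5. Over all probe sets, 496 were higher and 781 lower, against 89 and 112 with the replicate block, 91 and 131 with the module block, 179 and 257 with the day, 239 and 363 with the value plus 50, 899 and 1570 at an adjusted p under 0.05, and 0 and 0 on module 1 alone, where unc-4 itself had an adjusted p of 0.0813. Without single arrays, 176 to 468 were higher and 239 to 769 lower. The cause of these losses was not tested.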
